A study of Mus musculus with 36 samples.

Results

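The core circadian clock loop was followed through 10 genes, Arntl, Clock, Npas2, Per1, Per2, Per3, Cry1, Cry2, Nr1d1 and Nr1d2, which were found by symbol among the 51912 Ensembl gene IDs of the TA and of the soleus count table. All 10 were present in both tables and passed the filter on low counts in every fit. The libraries came from whole tibialis anterior (TA, a mainly fast hindlimb muscle) and soleus (a slow one) of 3-month-old C57BL/6 mice, with 9 libraries for each of 4 groups, that is, both muscles of WT and of ∆Ig3-MuSK mice. ∆Ig3-MuSK mice are homozygous for a CRISPR-Cas9 deletion of Musk exons 6 and 7, present in every cell of the body, which removes the third immunoglobulin-like domain (Ig3) of the muscle-specific kinase MuSK and with it high-affinity BMP binding. The labels name no treatment. The time of day and the light schedule at collection are not given in the sources used here. The label numbers of WT and ∆Ig3-MuSK libraries lie in separate ranges. Whether both genotypes were collected at the same hour is likewise not given, so genotype and hour cannot be told apart. The design asks how the clock genes differed between genotypes in each muscle, and the phase-opposed genes allow the same question among the libraries of 1 group.

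The clock is a feedback loop of transcription and translation that runs in nearly every cell, muscle fibers included. ARNTL (BMAL1), paired with CLOCK or its paralog NPAS2, binds E-box sequences and switches on Per, Cry and Nr1d genes; PER and CRY proteins return to the nucleus and block that activity, and the NR1D nuclear receptors (REV-ERBα and REV-ERBβ) repress Arntl, Clock and Npas2 through ROR/REV-ERB elements. Transcripts of the activators therefore peak when those of Per2, Per3 and the Nr1d genes are low, and the order of the genes in a tissue shifts with the hour at which it is collected.

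In GRCm38 the activator genes lie as follows: Arntl (ENSMUSG00000055116) on chromosome 7 from 113207465 to 113314126, Clock (ENSMUSG00000029238) on chromosome 5 from 76209868 to 76304792 and Npas2 (ENSMUSG00000026077) on chromosome 1 from 39193731 to 39363236. Of the Per genes, Per1 (ENSMUSG00000020893) lies on chromosome 11 from 69095217 to 69109960, Per2 (ENSMUSG00000055866) on chromosome 1 from 91415982 to 91459324 and Per3 (ENSMUSG00000028957) on chromosome 4 from 151003652 to 151044665. The Cry genes are Cry1 (ENSMUSG00000020038) on chromosome 10 from 85131700 to 85185064 and Cry2 (ENSMUSG00000068742) on chromosome 2 from 92403646 to 92434043, and the Nr1d genes are Nr1d1 (ENSMUSG00000020889) on chromosome 11 from 98767932 to 98775333 and Nr1d2 (ENSMUSG00000021775) on chromosome 14 from 18204054 to 18239127. The merged annotated exons of a member cover from 3077 bases in Nr1d1 to 13727 bases in Clock.

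The sequences bound by these factors can be read in the genes' promoters. RefSeq windows of 300 bases, from 250 before to 50 after an annotated start (GRCm38.p6), were found for 9 of the 10 genes, 13 windows in all, and Per2 had none. Both strands were searched for the E-box CACGTG, the E′-box CACGTT, the D-box TTANGTAA and the ROR/REV-ERB element ANTAGGTCA or ANTGGGTCA. No motif overlaps another in the windows shown. An E-box was in 2 of the 13 windows and in 7.15% of all 32851 promoter windows. An E′-box was in 3 of the 13 and 4.68% of all, a D-box in 1 and 2.32%, and a ROR/REV-ERB element in 1 and 1.45%. The windows below are shown because they hold the E-box of a Per and of a Cry gene, both D-boxes of Per3 and the ROR/REV-ERB element of Arntl, with the matches in capitals and each window written 5′ to 3′ along the gene.
Per1, chr11:69098699-69098998, plus strand: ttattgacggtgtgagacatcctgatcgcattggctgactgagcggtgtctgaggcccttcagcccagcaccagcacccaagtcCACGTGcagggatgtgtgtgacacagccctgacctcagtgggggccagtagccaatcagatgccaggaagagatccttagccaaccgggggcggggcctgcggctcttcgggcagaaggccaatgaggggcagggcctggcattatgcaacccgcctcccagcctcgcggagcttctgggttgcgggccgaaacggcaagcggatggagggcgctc
Cry1, chr10:85185005-85185304, minus strand: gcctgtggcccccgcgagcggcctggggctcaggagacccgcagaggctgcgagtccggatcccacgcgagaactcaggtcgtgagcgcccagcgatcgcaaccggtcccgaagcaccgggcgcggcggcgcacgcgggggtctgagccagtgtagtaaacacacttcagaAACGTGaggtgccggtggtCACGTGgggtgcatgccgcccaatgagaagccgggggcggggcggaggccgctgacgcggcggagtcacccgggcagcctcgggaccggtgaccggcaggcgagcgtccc
Per3, chr4:151044616-151044915, minus strand: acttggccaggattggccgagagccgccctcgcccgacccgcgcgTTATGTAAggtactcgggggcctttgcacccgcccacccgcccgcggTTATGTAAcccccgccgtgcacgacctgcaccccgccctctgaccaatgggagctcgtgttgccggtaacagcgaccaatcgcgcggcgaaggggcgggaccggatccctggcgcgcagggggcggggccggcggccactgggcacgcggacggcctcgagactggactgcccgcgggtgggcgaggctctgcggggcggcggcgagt
Arntl, chr7:113207261-113207560, plus strand: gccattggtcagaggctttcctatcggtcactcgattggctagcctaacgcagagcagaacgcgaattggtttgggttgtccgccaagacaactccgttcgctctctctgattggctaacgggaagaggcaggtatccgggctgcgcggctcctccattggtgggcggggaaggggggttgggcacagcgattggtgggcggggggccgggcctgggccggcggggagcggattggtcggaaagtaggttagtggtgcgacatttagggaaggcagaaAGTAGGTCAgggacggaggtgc
The E-box of Per1 begins 166 bases before the start, and that of Cry1 60 bases before it, next to an E′-box 79 bases before it, read as AACGTG. The D-boxes of Per3, both TTATGTAA, begin 205 and 158 bases before the start. The ROR/REV-ERB element of Arntl, AGTAGGTCA, begins at base 29 of the transcript in the second of its annotated windows. The other matches were an E′-box in Cry2 and one in Nr1d1, and the windows of Clock, Npas2 and Nr1d2 held none of the motifs. A match is a run of letters and says nothing of binding in these muscles.

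The libraries held between 43492062 and 78660422 counted reads. Marker genes fitted the muscle labels, with summed slow-fiber markers at 8.1 to 72.5 CPM (reads on a gene scaled to a common library size) in TA and 12173 to 18523 CPM in soleus libraries. Summed fast-fiber markers were at 43603 to 63851 CPM in TA and 8155 to 23133 CPM in soleus. The highest soleus sums were in WT replicates 1 and 2 (23133 and 21124 CPM). In soleus 5 of 5 fast-fiber markers were higher in ∆Ig3-MuSK (median log2 difference 0.54), 0 of them with an unadjusted edgeR p under 0.05. Their part in the clock gene values was not tested. Musk itself, counted per gene, differed by -0.46 (TA) and -0.44 (soleus) on the log2 scale (adjusted p = 0.135 and 0.0978). Exons of 3 members overlap those of a gene on the opposite strand, which unstranded libraries cannot separate: 0.439% of the Arntl exon length (Gm45355), 4.67% for Cry2 (D930015M05Rik) and 8.55% for Nr1d1 (Thra). Before the clock genes are compared, 4 libraries have to be named. ∆Ig3-MuSK TA replicates 5 and 6 and soleus replicates 4 and 5, which carry the same pair of numbers in their labels, stood apart from the other 7 of their group in both muscles and are called the outlying libraries here. They had the lowest Arntl, Npas2 and Nr1d1 and the highest Per1, Per2, Per3 and Cry2 of the group. The genotype differences of the members, and of the other clock genes that were called, are therefore given with and without these libraries, which were chosen after their values had been seen. They also had the highest summed level of the 8 glucocorticoid targets other than Per1 in their group, 843 and 694 CPM in TA (group median 557 CPM) and 651 and 511 CPM in soleus (group median 395 CPM).

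Levels between genes were compared per length, as CPM divided by exon length in kilobases (RPKM). Nr1d1 was the most abundant member in every group, from 39.0 ± 4.11 RPKM in WT TA to 50.7 ± 6.70 RPKM in ∆Ig3-MuSK soleus (mean ± SD, n = 9). Nr1d2 came next in every group, with means of 11.8 to 20.4 RPKM. Npas2 was the least abundant in 3 groups, at 0.232 to 0.395 RPKM, and its lowest count in a library was 21 reads. In WT soleus Per2 was lower still, at 0.516 ± 0.247 RPKM against 0.621 ± 0.115 RPKM for Npas2. Per2 reached 2.43 RPKM in ∆Ig3-MuSK TA, and the means of the remaining members lay between 1.07 and 9.13 RPKM. Per1 and Per2 spread most within a group, with coefficients of variation of 43.3% to 63.0%, whereas Cry1 and Nr1d2 stayed at 7.58% to 14.2%.

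In ∆Ig3-MuSK soleus 6 of the 10 clock genes differed from WT. The activator genes Arntl and Npas2 fell, the repressor genes Per2, Per3, Cry2 and Nr1d2 rose, and Clock, Per1, Cry1 and Nr1d1 did not pass the test. Only Npas2 and Nr1d2 passed without the outlying libraries. In the TA the estimates of these 6 genes had the same signs, but 0 of 10 members passed edgeR's test. Calls were made at a Benjamini-Hochberg adjusted p under 0.05 over all genes tested and at least 1.2-fold. The 4 members called higher in soleus compare with 0.365% of all 19439 genes, and the 2 called lower with 0.586%. In the TA, 8 of 10 members had an unadjusted p under 0.05, as did 24.1% of all 20075 genes, and 0.0149% of all genes were called. Log2 fold changes are those of ∆Ig3-MuSK over WT within 1 muscle, with standard errors, and CPM are scaled over all 36 libraries.

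**Figure D1:**
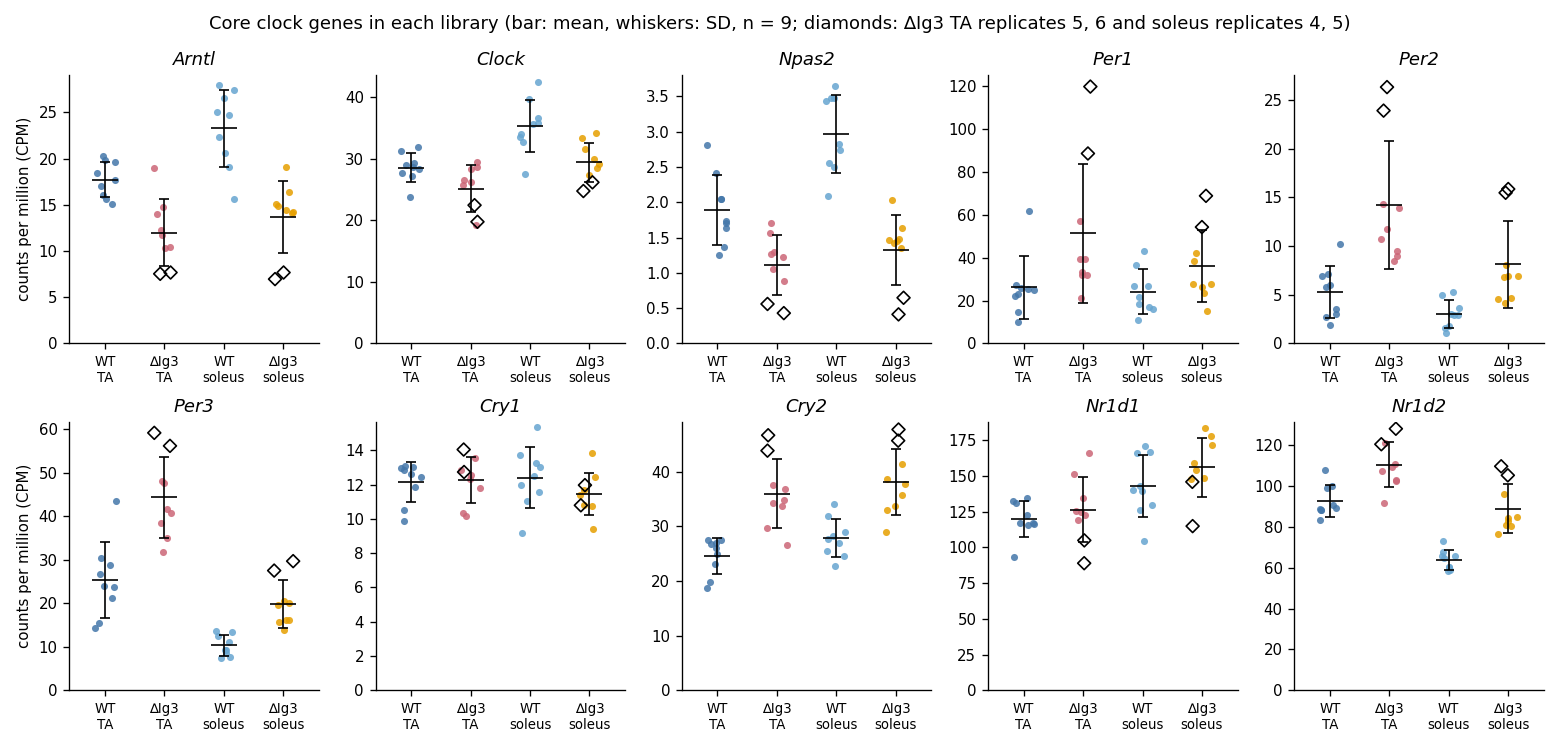
CPM (vertical axes, from 0) of each of the 10 clock genes in the 9 libraries of each group, with mean and SD; diamonds mark the outlying libraries. In soleus every ∆Ig3-MuSK library lies below every WT library for Npas2 and above every WT library for Nr1d2.

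Arntl encodes the activator without which the loop stops. Its level was 15.03 to 20.2 CPM in WT TA (median 17.7) and 7.53 to 18.9 CPM in ∆Ig3-MuSK TA (median 11.7). In soleus it was 15.6 to 28.01 CPM in WT (median 24.8) and 6.96 to 19.1 CPM in ∆Ig3-MuSK (median 14.4). In TA 8 of 9 and in soleus 7 of 9 ∆Ig3-MuSK libraries were below the lowest WT library, so the groups overlapped in 1 and 2 libraries. The log2 fold change was -0.78 ± 0.16 in soleus (adjusted p = 0.0291) and -0.57 ± 0.14 in TA (adjusted p = 0.135). Without the outlying libraries it was -0.60 in soleus (adjusted p = 0.0507) and -0.42 in TA (adjusted p = 0.361).

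Npas2, a partner of ARNTL that can stand in for CLOCK, was the member with the largest lower fold. It was measured at 2.09 to 3.65 CPM in WT soleus (median 2.83) and at 0.412 to 2.04 CPM in ∆Ig3-MuSK soleus (median 1.45). Every ∆Ig3-MuSK soleus library was below every WT one, a separation shown by 0.0412% of all genes in that direction with CPM scaled within soleus. The log2 fold change was -1.18 ± 0.20 (adjusted p = 0.0164), and -0.95 without the outlying libraries (adjusted p = 0.0083). In TA the range was 1.25 to 2.81 CPM in WT (median 1.74) and 0.429 to 1.71 CPM in ∆Ig3-MuSK (median 1.23), with 5 ∆Ig3-MuSK libraries below all WT ones. The TA difference of -0.76 ± 0.21 did not pass (adjusted p = 0.144), and was -0.55 without the outlying libraries (adjusted p = 0.361).

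Clock, which encodes the usual partner of ARNTL, differed less. The WT medians were 28.6 CPM in TA and 35.7 CPM in soleus, against 26.2 and 29.1 CPM in ∆Ig3-MuSK. All 9 ∆Ig3-MuSK soleus libraries were below the WT mean, and 3 were below every WT library. The log2 fold changes, -0.18 ± 0.08 in TA and -0.27 ± 0.07 in soleus, did not pass with edgeR (adjusted p = 0.187 and 0.0577), although DESeq2 called the soleus difference (adjusted p = 0.0162). The edgeR values without the outlying libraries were -0.12 and -0.22 (adjusted p = 0.432 and 0.128).

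Per2, whose protein forms the repressor complex with CRY, had the largest rise. It was found at 1.07 to 5.29 CPM in WT soleus (median 2.90) and at 4.12 to 15.9 CPM in ∆Ig3-MuSK soleus (median 6.89). In TA its level was 1.85 to 10.2 CPM in WT (median 5.75) and 8.49 to 26.3 CPM in ∆Ig3-MuSK (median 11.7). The groups overlapped in both muscles, and 6 of 9 ∆Ig3-MuSK libraries exceeded all WT libraries in each. The log2 fold change was 1.42 ± 0.31 in soleus (adjusted p = 0.0339) and 1.44 ± 0.29 in TA (adjusted p = 0.0788). The outlying libraries held 15.5 and 15.9 CPM in soleus and 26.3 and 23.9 CPM in TA. Without them the differences were 0.97 (adjusted p = 0.106) and 1.08 (adjusted p = 0.361), and all of the 7 remaining ∆Ig3-MuSK libraries were above the WT mean in both muscles.

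Per3, a Per gene that the loop can run without, rose in soleus from 7.37 to 13.6 CPM (median 9.26) in WT to 13.8 to 29.7 CPM (median 19.6) in ∆Ig3-MuSK. On this scale all 9 ∆Ig3-MuSK soleus libraries were above the highest WT library, the lowest of them narrowly, and with CPM scaled within soleus 8 of 9 were. The log2 fold change was 0.94 ± 0.16 (adjusted p = 0.0161), and 0.74 without the outlying libraries (adjusted p = 0.0507). In TA it was 14.3 to 43.5 CPM in WT (median 23.9) and 31.8 to 59.2 CPM in ∆Ig3-MuSK (median 41.7), with a log2 fold change of 0.81 ± 0.17 (adjusted p = 0.0877), or 0.68 without the outlying libraries (adjusted p = 0.361). There 4 ∆Ig3-MuSK libraries were above every WT library and 9 above the WT mean.

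Per1, a Per gene that hormones such as glucocorticoids also induce, had the largest coefficient of variation of the members in TA (56.0% in WT and 63.0% in ∆Ig3-MuSK), whereas in soleus Per2 did (47.8% and 54.8%). Its level ranged from 9.78 to 61.9 CPM in WT TA (median 25.1) and from 21.2 to 119.9 CPM in ∆Ig3-MuSK TA (median 39.2). In soleus it ranged from 10.8 to 43.3 CPM (median 21.5) and from 14.9 to 68.9 CPM (median 27.7). The genotypes overlapped in both muscles, and the differences of 0.98 ± 0.33 in TA and 0.57 ± 0.27 in soleus did not pass (adjusted p = 0.155 and 0.266). In each muscle the 2 ∆Ig3-MuSK libraries above all WT libraries were the outlying ones, at 119.9 and 88.6 CPM in TA and 68.9 and 54.3 CPM in soleus, and without them the differences were 0.47 and 0.23 (adjusted p = 0.382 and 0.625). The highest Per1 in WT TA, in replicate 6, went with the highest sum of the 8 glucocorticoid targets in that group, 749 CPM. Over the groups that sum ran from 502 to 749 CPM in WT TA, 458 to 843 CPM in ∆Ig3-MuSK TA, 289 to 419 CPM in WT soleus and 316 to 651 CPM in ∆Ig3-MuSK soleus, with all 8 above 0.1 CPM on average. Of these 8 genes, 0 were called in TA and 1, Klf9, was called higher in soleus. Their part in the Per1 values was not tested.

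Cry2, which encodes one of the paired repressors, rose while its paralog Cry1 did not pass. Cry2 was at 22.8 to 34.1 CPM in WT soleus (median 27.7) and 29.0 to 47.7 CPM in ∆Ig3-MuSK soleus (median 37.7). In TA it was at 18.7 to 27.6 CPM in WT (median 26.1) and 26.7 to 46.7 CPM in ∆Ig3-MuSK (median 34.8). Of the ∆Ig3-MuSK libraries, 8 in TA and 6 in soleus exceeded all WT libraries. The log2 fold change was 0.44 ± 0.09 in soleus (adjusted p = 0.0291) and 0.55 ± 0.10 in TA (adjusted p = 0.0606). Without the outlying libraries it was 0.34 (adjusted p = 0.0835) and 0.44 (adjusted p = 0.33). Cry1, which holds both an E-box and an E′-box in the window shown, had medians of 12.6 CPM in each TA group, 12.5 CPM in WT soleus and 11.4 CPM in ∆Ig3-MuSK soleus, with log2 fold changes of 0.01 ± 0.07 and -0.13 ± 0.08 (adjusted p = 0.911 and 0.397). These were -0.02 and -0.13 without the outlying libraries (adjusted p = 0.881 and 0.43).

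Nr1d2, the gene of REV-ERBβ, had the smallest adjusted p of the members. In soleus it was at 58.2 to 73.1 CPM in WT (median 64.9) and at 76.4 to 109.7 CPM in ∆Ig3-MuSK (median 84.1). No libraries overlapped, as for 0.0206% of all genes with ∆Ig3-MuSK higher. The log2 fold change was 0.47 ± 0.07 (adjusted p = 0.0134), and 0.37 without the outlying libraries (adjusted p = 0.0118). In TA the levels overlapped, at 83.5 to 107.7 CPM in WT and 91.8 to 128.1 CPM in ∆Ig3-MuSK, with a log2 fold change of 0.25 ± 0.06 (adjusted p = 0.135), or 0.20 without the outlying libraries (adjusted p = 0.361). No member separated the genotypes in TA, where 0.00996% of genes did so in each direction.

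Nr1d1, the gene of REV-ERBα, did not follow its paralog. Its medians were 117.3 CPM in WT TA, 124.8 CPM in ∆Ig3-MuSK TA, 139.9 CPM in WT soleus and 154.5 CPM in ∆Ig3-MuSK soleus. The log2 fold changes were 0.08 ± 0.10 in TA and 0.11 ± 0.09 in soleus (adjusted p = 0.629 and 0.542). The outlying libraries lay at the bottom of the ∆Ig3-MuSK group, at 89.0 and 105.0 CPM in TA and 115.0 and 146.0 CPM in soleus, and without them both differences were 0.17 (adjusted p = 0.361 and 0.289). Thra, with which Nr1d1 shares exon sequence on the other strand, differed by -0.03 and 0.10 (adjusted p = 0.775 and 0.356).

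**Figure D2:**
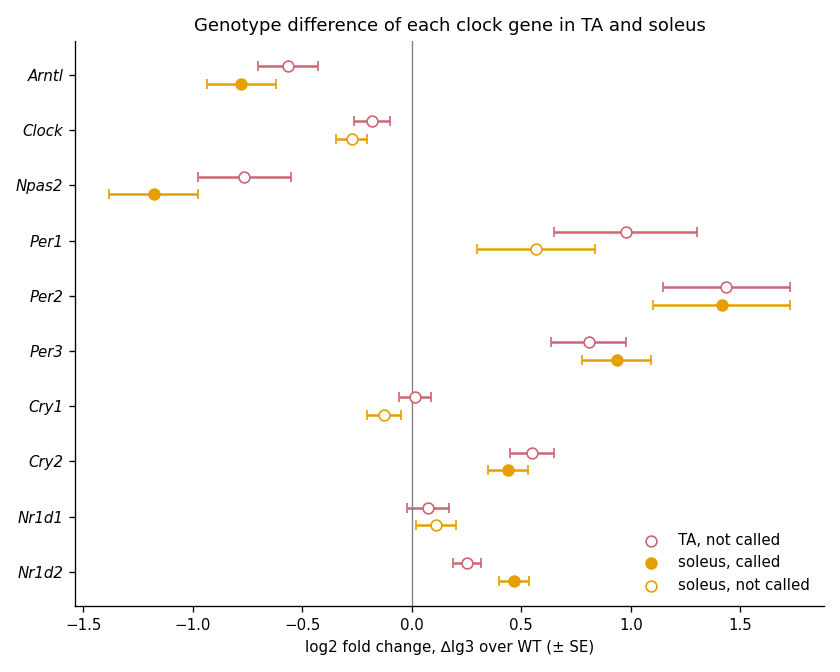
Log2 fold change of ∆Ig3-MuSK over WT (horizontal axis) with its standard error for each clock gene in TA and soleus; filled points passed the call. Per2 reaches 1.44 in TA and 1.42 in soleus, and Npas2 reaches -0.76 and -1.18.

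How many of the members were called depended on the test and the libraries. In TA, DESeq2 called 5 of 10 (1.36% of all genes), limma-voom with sample quality weights 5 (0.747%) and a single edgeR fit over the 36 libraries 5 (3.32%). These were the same genes in each, Arntl, Npas2, Per2, Per3 and Cry2. In soleus, leaving out the outlying libraries left 2 called members, Npas2 lower (0.0204% of genes were called lower) and Nr1d2 higher (0.0051% called higher). Leaving out WT soleus replicate 3, 4, 5 or 6 left 3, Npas2, Per3 and Nr1d2 each time, which passed in all 18 fits with 1 soleus library left out.

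Whether the genotype difference itself differed between muscles was tested with an interaction term over the 36 libraries, coded as the soleus difference minus the TA difference. edgeR called 0 of 10 members and 0% of 20841 genes, and DESeq2 also called 0 members. At an unadjusted p under 0.05 there was 1 member, Nr1d2 (0.23 ± 0.09, adjusted p = 0.143), where 24.9% of all genes reached that level. The interaction was -0.20 ± 0.22 for Arntl, -0.40 ± 0.31 for Npas2, -0.01 ± 0.45 for Per2 and 0.14 ± 0.24 for Per3. The fit treated the 36 libraries as independent. TA and soleus libraries of the same label number moved together for some members, given below (r = 0.929 for Per2 and 0.917 for Arntl). The standard errors above make no use of that relation. These values do not show that the muscles responded alike.

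Levels were also compared between the muscles. The TA libraries were made with the NEBNext Ultra II kit and the soleus libraries with the NEBNext Ultra kit, so muscle and kit cannot be told apart, here or in the interaction. In WT, Per3 was lower in soleus than in TA by -1.29 ± 0.17 on the log2 scale (adjusted p = 3.11e-08), Per2 by -0.79 ± 0.32 (adjusted p = 0.0293) and Nr1d2 by -0.54 ± 0.07 (adjusted p = 6.22e-09). Arntl, Clock and Npas2 were higher in WT soleus, by 0.39 ± 0.15, 0.31 ± 0.08 and 0.65 ± 0.21 (adjusted p = 0.0246, 0.000898 and 0.00628). Thus 6 of 10 members were called, a share close to the 57.5% of all genes called. Between ∆Ig3-MuSK muscles 4 of 10 were called, against 56.1% of all genes. Per3 (-1.16 ± 0.17), Per2 (-0.80 ± 0.30) and Nr1d2 (-0.31 ± 0.07) were again lower in soleus, and Nr1d1 was higher (0.30 ± 0.10, adjusted p = 0.00626). Leaving out the outlying libraries gave the same called members in both comparisons. By mean level, both Per2 and Per3 were highest in ∆Ig3-MuSK TA and lowest in WT soleus. Between these lay WT TA (25.3 ± 8.77 CPM) and ∆Ig3-MuSK soleus (19.9 ± 5.47 CPM) for Per3, and ∆Ig3-MuSK soleus (8.14 ± 4.46 CPM) and WT TA (5.25 ± 2.67 CPM) for Per2, which in each case differed by less than the larger SD.

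Opposed genes can also be read within a library, where a ratio of counts needs no scaling. The Per2 to Arntl ratio was 0.109 to 0.677 in WT TA (median 0.305) and 0.474 to 3.43 in ∆Ig3-MuSK TA (median 1.03). In soleus it was 0.0403 to 0.318 in WT (median 0.122) and 0.239 to 2.28 in ∆Ig3-MuSK (median 0.479). The genotypes overlapped at the edges in both muscles, and the highest ratios were those of the outlying libraries.

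**Figure D3:**
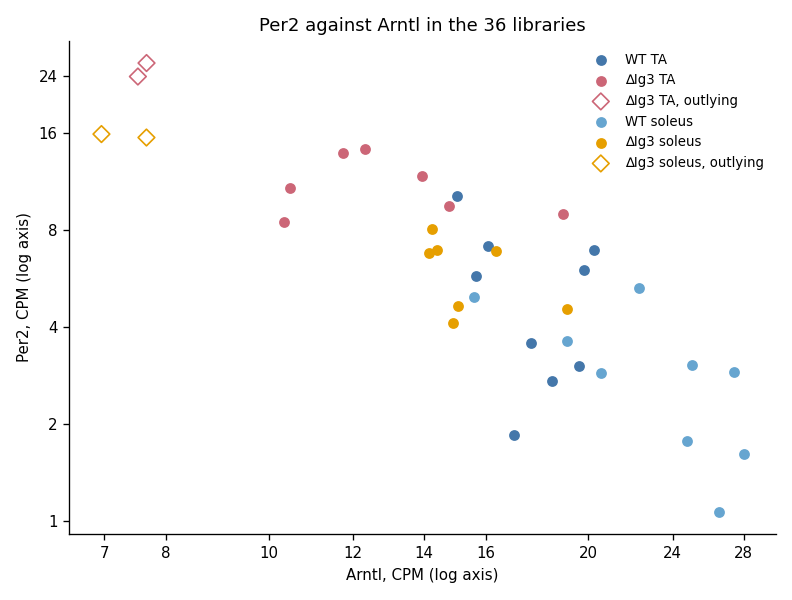
Per2 against Arntl in the 36 libraries, both in CPM on log axes, colored by group; open diamonds are the outlying libraries. These 4 libraries hold 6.96 to 7.67 CPM of Arntl, less than any other library.

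Variation among libraries of 1 genotype was examined by removing the genotype mean from log2 CPM and correlating Arntl with the other members over the 18 libraries of a muscle, with permutations within genotype and Benjamini-Hochberg adjustment over the 18 relations. In soleus, Npas2 followed Arntl most closely (Pearson's r = 0.934, adjusted permutation p = 0.00054; Spearman's rho = 0.849, adjusted permutation p = 0.00108), and r was 0.844 without the 2 libraries farthest from the median. Clock also moved with Arntl (r = 0.750, rho = 0.701, adjusted permutation p = 0.0009 and 0.0079; 0.736 without the 2 libraries). Per2 (r = -0.792, rho = -0.746), Per3 (-0.809, -0.787), Cry2 (-0.751, -0.794) and Nr1d2 (-0.832, -0.688) moved against it, with adjusted permutation p of at most 0.00912 for both measures. Without the 2 farthest libraries these r were between -0.591 and -0.677. In soleus these 2, chosen by Arntl, were the outlying libraries. In this check genotype means were not removed again after the libraries were left out, in either muscle. The values without the outlying libraries, given below, have the means removed again, and there the relations of these genes did not pass. Within WT soleus alone r was -0.710 for Per2, -0.686 for Per3, -0.458 for Cry2 and -0.746 for Nr1d2 (n = 9). Per1, Cry1 and Nr1d1 did not pass in soleus.

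In TA, Npas2 again moved with Arntl and Nr1d2 and Per2 against it, with smaller r than in soleus, and relations of Nr1d1 and Per1 passed that had not passed in soleus. Pearson's r with Arntl was 0.742 for Npas2, 0.655 for Nr1d1, -0.728 for Nr1d2, -0.499 for Per2 and -0.531 for Per1, with adjusted permutation p of 0.0054, 0.0228, 0.0029, 0.0281 and 0.0498. No Spearman's rho passed in TA, where the smallest adjusted permutation p was 0.0565, for Nr1d2 (rho = -0.573). Without the 2 farthest libraries r was 0.559, 0.457, -0.503, -0.386 and -0.300 for these genes, and within WT TA it was 0.182, 0.101, -0.487, -0.267 and 0.190. In all, 11 of 18 relations passed with all libraries and 2 without the outlying libraries, those of Npas2 and Clock in soleus (r = 0.792 and 0.748). The soleus relations of Per2, Per3, Cry2 and Nr1d2 then had r of -0.651, -0.643, -0.546 and -0.563 (adjusted permutation p = 0.052, 0.052, 0.0659 and 0.0585). In TA r was then 0.403 for Npas2, 0.342 for Nr1d1, -0.600 for Nr1d2, -0.185 for Per2 and -0.114 for Per1 (adjusted permutation p = 0.19, 0.344, 0.052, 0.478 and 0.757), so that all of these lost their call.

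**Figure D4:**
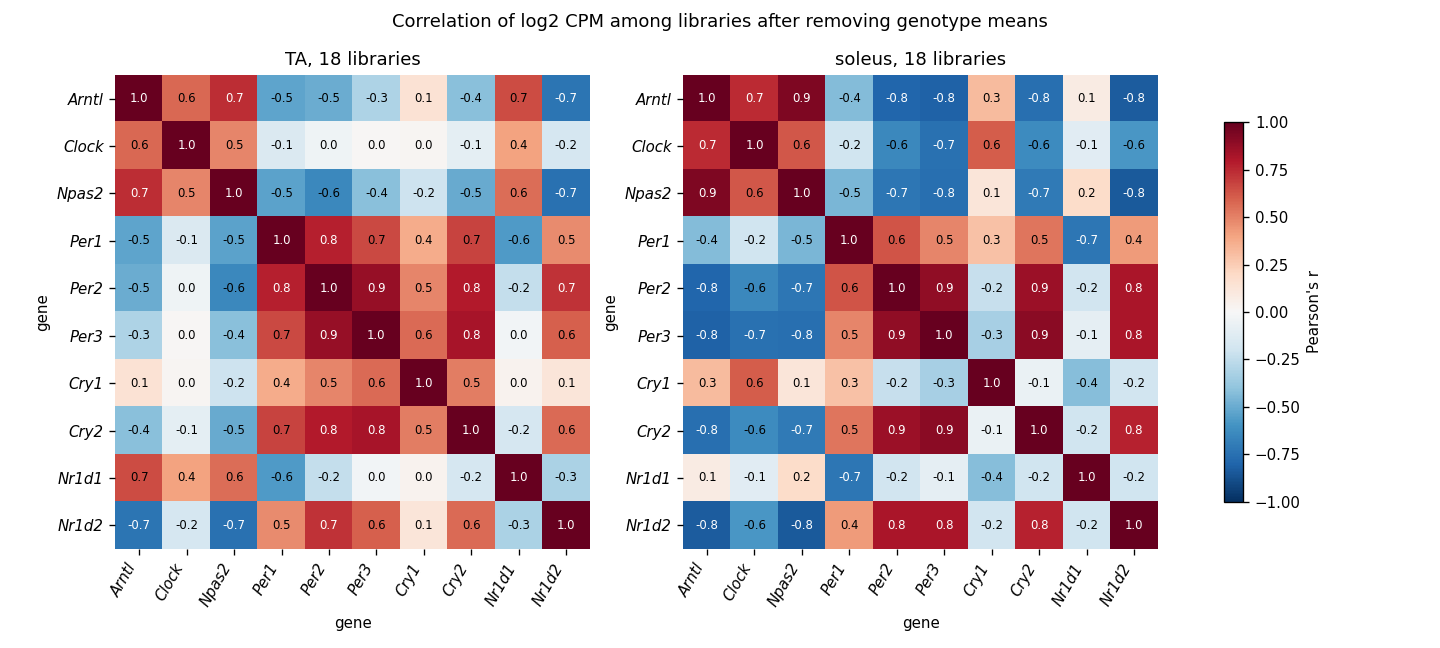
Pearson's r between every pair of clock genes over the 18 libraries of TA and of soleus, after removing genotype means; red is positive and blue negative, from -1 to 1. Per2, Per3, Cry2 and Nr1d2 form a positive block in both muscles (Per2 and Per3 at 0.872 in TA and 0.889 in soleus), and Arntl, Clock and Npas2 stand against it in soleus.

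Libraries of TA and soleus that share a label number and a genotype number 16, 8 for each genotype. Whether the shared number marks 1 animal is not stated in the sources used here. After removing genotype means, Per2 in TA and in soleus of the same number had r = 0.929 (rho = 0.885), Arntl 0.917 (0.850) and Per1 0.883 (0.759), with adjusted permutation p of at most 0.00563 for each. The median r over all 18931 genes tested in both muscles was 0.144, and 0.0317% of them reached the r of Per2, 0.0528% that of Arntl and 0.174% that of Per1. Cry2 (0.780), Npas2 (0.766), Nr1d2 (0.691), Nr1d1 (0.675) and Per3 (0.664) passed as well, whereas Npas2 did not by Spearman's rho (0.512, adjusted permutation p = 0.0703). Clock (0.353) and Cry1 (0.135) did not pass. The 2 farthest libraries were here chosen for each gene by its TA value, and genotype means were not removed again. Without them r was 0.896 for Per2, 0.809 for Arntl and 0.780 for Per1. Without the outlying libraries it was 0.913 for Per2, 0.756 for Arntl and 0.802 for Per1, and these 3 of the 8 relations still passed. Within WT alone r was 0.935 for Per2, 0.868 for Arntl and 0.826 for Per1 (8 numbers).

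**Figure D5:**
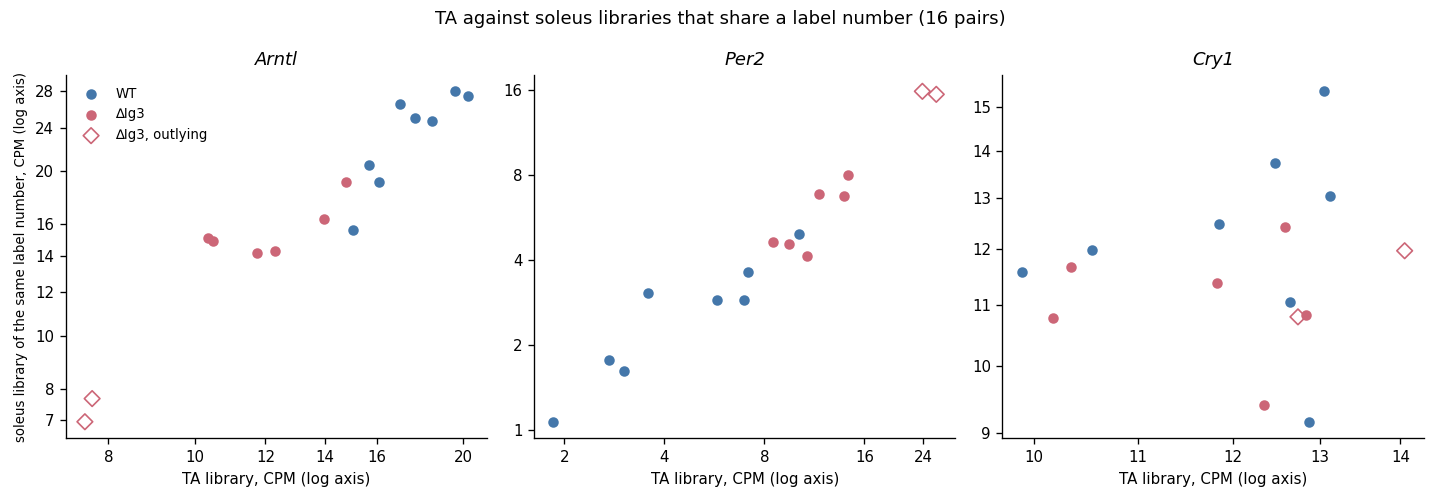
CPM in the TA library (horizontal, log axis) and in the soleus library of the same label number (vertical, log axis) for Arntl, Per2 and Cry1; blue is WT, red ∆Ig3-MuSK, and open diamonds are the outlying libraries. The points rise together for Arntl and Per2 and scatter for Cry1, whose r was 0.135.

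Of the other genes of the clock, 17 regulators and 8 output genes were examined. Of the 15 regulators tested, 0 were called in TA with edgeR and 2 were called higher in soleus. In TA 6 had an unadjusted p under 0.05, all higher, where 24.1% of all genes reached that level in either direction. The regulators called in soleus were Ciart, a repressor of the CLOCK-ARNTL complex (1.65 ± 0.29, adjusted p = 0.0164), and Bhlhe41, which competes for E-boxes (0.45 ± 0.09, adjusted p = 0.0287). Neither passed without the outlying libraries, at 1.24 for Ciart (adjusted p = 0.0527) and 0.42 for Bhlhe41 (adjusted p = 0.079). Ciart in TA was at 1.25 ± 0.23 (adjusted p = 0.0606), and Bhlhe41 in TA at -0.01 ± 0.08 (adjusted p = 0.921). Nfil3, the repressor at D-boxes, was at -0.61 ± 0.16 in soleus (adjusted p = 0.0566) and -0.12 ± 0.20 in TA. Rora, whose protein competes with REV-ERB at ROR elements, was at 0.31 in TA and 0.18 in soleus and was called in neither. Of the 8 output genes, 1 was called higher in TA and 4 in soleus. Dbp, the D-box activator driven directly by CLOCK-ARNTL, rose by 0.90 ± 0.11 in TA and 1.23 ± 0.19 in soleus (adjusted p = 0.0012 and 0.0135). Its relatives Tef (0.48 ± 0.09) and Hlf (0.85 ± 0.16) and the deubiquitinase gene Usp2 (0.59 ± 0.14) rose in soleus (adjusted p = 0.0261, 0.0202 and 0.0427). Without the outlying libraries, which held the highest summed output genes in soleus (875 and 802 CPM), 0 of the 8 were called there, with values of 1.08 for Dbp, 0.35 for Tef, 0.64 for Hlf and 0.38 for Usp2 (adjusted p = 0.0507, 0.0674, 0.0539 and 0.106). Dbp in TA still passed without them (0.85, adjusted p = 0.0156). The median log2 fold change of the output genes was 0.32 in TA and 0.44 in soleus, beside -0.0032 and -0.0017 over all genes tested.

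Markers of other cell types and of handling moved with the genotypes in soleus in part. Of 8 brain markers tested 2 were called higher, Gfap and Gad1, both at low levels. Gfap was at 0.665 ± 0.135 CPM in WT and 1.22 ± 0.377 CPM in ∆Ig3-MuSK soleus (mean ± SD, n = 9), and Gad1 at 0.367 ± 0.106 and 0.710 ± 0.205 CPM. The sum of the brain markers, 53.3 to 102.8 CPM in WT and 73.7 to 100.5 CPM in ∆Ig3-MuSK soleus, was mostly Camk2a, with means of 66.1 and 77.6 CPM. Of 8 immediate early genes 0 were called with edgeR in either muscle, but 4 had an unadjusted p under 0.05 and a lower level in ∆Ig3-MuSK soleus, where the sum was 61.6 to 155.0 CPM against 70.1 to 188.4 CPM in WT. Markers of fibroblasts, leukocytes, endothelium, Schwann cells, adipocytes and red cells had 0 calls in each muscle with edgeR, and 5 unadjusted p under 0.05 in all. Of all genes, 24.1% had an unadjusted p under 0.05 in TA, and the share in soleus is not given here. The markers were not compared with these shares by a test. The part of the markers in the clock gene values was not tested, and in whole muscle fewer cells of a type and less RNA per cell cannot be told apart.

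Outside the 10 members, the genes most alike to Arntl among libraries were ranked by Pearson's r over genotype-centered values of 18 libraries, among genes with a mean of at least 5 CPM, as a description. In TA these were Ypel2 (0.897), Sh3bp5 (0.877), Leo1 (0.853), Dyrk2 (0.844) and Miga2 (0.838), and the most opposed were Mcl1 (-0.875), Herpud1 (-0.857), Lmod2 (-0.845), Klhdc3 (-0.827) and Car4 (-0.812). In soleus the most alike were Leo1 (0.896), Cavin2 (0.841), Slc25a36 (0.839), Arhgap18 (0.834) and Dhx32 (0.804), and the most opposed were Prodh (-0.864), Paxip1 (-0.846), Agap2 (-0.838), Adh1 (-0.835) and Usp2 (-0.834). Leo1 was among the 5 genes most alike in each muscle, and Usp2 is one of the output genes above. The genes most alike to Nr1d1 were Maf (0.927), Gm15655, Pim1, Thra (0.837) and Gm26885 in TA and Hes1 (0.857), Myct1, Cited2, Gadd45b and Mpdu1 in soleus. Those most opposed to it were Cnn3 (-0.911), Gpihbp1, Sult1a1, Adh1 and Ly6c2 in TA and Klf6 (-0.860), Errfi1, Amotl2, Id1 and Ate1 in soleus. No gene was on the Nr1d1 list of both muscles, and the points include the outlying libraries. Thra shares exon sequence with Nr1d1 on the other strand, and the part of shared reads in its r was not tested.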

How the data were processed

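RNA-seq libraries were made from 36 muscles, 9 in each of 4 groups, with non-stranded NEBNext kits, Ultra II for TA and Ultra for soleus. After trimming (Trimmomatic), the authors mapped reads to the mm10 (GRCm38) mouse genome by GSNAP and obtained a count for each gene from htseq-count. The deposited values are whole-number counts, not normalized, in 1 table per muscle. The annotation release and the counting mode are not given in the sources used here. Reads shared by overlapping genes may therefore be lost or split. Groups came from the sample labels, and 0 columns of other samples were present. Totals were 43492062 to 78660422 counts per library. Counting error was small at these depths except for Npas2 and, in some WT libraries, Per2 (51 reads in WT soleus replicate 5). Standard errors reflect the spread between libraries of a group, which the study took from separate animals (1 muscle per animal).

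Symbols and coordinates came from GENCODE for GRCm38, and 51719 of 51912 IDs had a symbol. Tests ran in R 4.3.3. Genes were filtered with filterByExpr (minimum count 10, total 15), scaled with TMM factors and compared with the quasi-likelihood test of edgeR 4.0.16, between genotypes within each muscle and in a fit of 4 group means over 36 libraries for the interaction and the muscle contrasts. Adjusted p-values are Benjamini-Hochberg over all genes tested. Log2 CPM used a prior count of 2, and correlations used 100000 permutations within genotype (Python, numpy, scipy). Fold changes were fitted within a muscle, whereas printed CPM were scaled over both muscles. RPKM divide by the length of the union of exons. In the study, DESeq2 was run through iDEP at these limits.

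Alternatives were DESeq2 1.42.0, limma-voom (limma 3.58.1) with quality weights, robust fits, RLE and upper-quartile factors, other filters, no fold minimum, 1 fit over 36 libraries, a replicate block, a prior count of 4 and each library left out in turn. Leaving out ∆Ig3-MuSK TA replicates 5 and 6 and soleus replicates 4 and 5, the outlying libraries, was chosen after seeing the data. The named genes were all 10 members, the called and 8 preset genes among the other clock genes (1 of these is not reported here), and the 5 genes at each end of the correlations with Arntl and Nr1d1. The members and lists were chosen with earlier results of these data known. In simulated counts, 200 genes were given a log2 change of 1, of which the TA test recovered 97% among 19909 genes and the soleus test 98% among 19324. The simulation gave every gene the same dispersion and held no outlying libraries. These shares therefore do not carry over to members with a wide spread, such as Per1 and Per2.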

Additional observations from a re-analysis of the deposited data

Results flagged for a closer look

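Of 40 sets of 9 values (10 genes in 4 groups), 2 held a library whose gap to the next exceeded Dixon's 95% limit for 9 samples (0.493 of the range), and chance alone sets apart about 1 in 20. Per1 in WT TA reached 61.9 CPM in replicate 6, while the next highest held 27.2 CPM, a gap of 0.666 of the range. Without that library the Per1 difference in TA was 1.25 on the log2 scale (edgeR, adjusted p = 0.121). Nr1d1 in WT TA was 93.1 CPM in replicate 5, below the next lowest at 115.8 CPM, a gap of 0.549 of the range. The outlying ∆Ig3-MuSK libraries, TA replicates 5 and 6 and soleus replicates 4 and 5, did not exceed this limit, which looks at 1 library at a time.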

How the results depend on the processing

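In TA the number of called members was 0 of 10, and it was 5 with DESeq2, 5 with limma-voom with quality weights, 5 with 1 fit over 36 libraries, 2 without a filter and 1 with upper-quartile factors; the cause was not tested. It ranged from 0 to 2 with 1 library left out, 2 without WT replicate 7, and 1 without ∆Ig3-MuSK replicate 1, 3 or 7. In soleus it was 6, ranged from 3 to 7 with 1 library left out, was 5 to 7 under the other settings, and was 2 without the outlying libraries, where the fit also has 2 libraries fewer. The count for the interaction (0), for WT muscles (6) and for ∆Ig3-MuSK muscles (4) was the same under every alternative run for them. The relations with Arntl that passed fell from 11 to 5 without the 2 farthest libraries and to 2 without the outlying libraries, and those between muscles fell from 8 to 4 and to 3. In soleus the 2 farthest libraries were the outlying ones. There the r with Arntl of both checks differ only in removing genotype means again. Directions turned only for values that had not passed. Cry1 in TA (0.01) was -0.025 with limma-voom and -0.024 without the outlying libraries, and ranged from -0.024 to 0.046 with 1 library left out. Nr1d1 in TA was -0.0023 with limma-voom, and the Per2 interaction was 0.0019 with DESeq2. Without the outlying libraries, r with Arntl was 0.034 for Cry2 in TA, and 0.085 for Per1 and -0.61 for Nr1d1 in soleus, the last being -0.44 without the 2 farthest libraries.

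With the title replicate number as a replicate block, 0 members were called in TA and 5 in soleus (Per2 was lost). The blocked libraries of both genotypes carry different label numbers, and their deviations correlated from -0.135 to 0.451 in TA and from -0.330 to 0.359 in soleus. Whether libraries of the same replicate number share more than that number is not given in the sources used here. With the label number as a replicate block between muscles, the calls were 0 (interaction), 6 (WT) and 4 (∆Ig3-MuSK). Same-numbered TA and soleus libraries correlated from -0.00084 to 0.351 across genes. A TA library correlated best with the soleus library of its own number in 4 of 8 WT and 6 of 8 ∆Ig3-MuSK cases. The depth limits Npas2 most, with 21 to 191 counts per library.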

Other observations

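Pairs of paralogs within the loop kept different ratios of counts in a library, given here as values without a test. The Cry2 to Cry1 ratio had a median of 2.08 in WT TA, 2.88 in ∆Ig3-MuSK TA, 2.31 in WT soleus and 3.31 in ∆Ig3-MuSK soleus. The Nr1d2 to Nr1d1 ratio had a median of 0.765 in WT TA and 0.862 in ∆Ig3-MuSK TA, and of 0.453 and 0.516 in soleus. The Per3 to Arntl ratio had a median of 1.35 in WT TA and 3.45 in ∆Ig3-MuSK TA, and of 0.449 and 1.22 in soleus. Nr1d1, which lacked a relation to Arntl over all soleus libraries (r = 0.085), had r = -0.712 with Arntl in the 9 WT and 0.638 in the 9 ∆Ig3-MuSK soleus libraries. The difference between these was not tested, and without the outlying libraries the pooled r was -0.614 (adjusted permutation p = 0.0585). Cry1 had r = 0.843 with Arntl in WT soleus and -0.041 in ∆Ig3-MuSK soleus, a difference that was likewise not tested. Its pooled r in soleus was 0.313, and 0.597 without the outlying libraries (adjusted permutation p = 0.0585). In TA the pooled r was 0.148, and 0.631 without them (adjusted permutation p = 0.052).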
